A study of Rattus norvegicus with 8 samples.

Results

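The genes described here are 9 liver genes that the nuclear receptor PPAR-alpha is known to switch on: Acot1, Acot2, Ehhadh, Cyp4a1, Cyp4a2, Cyp4a3, Pex11a, Vnn1 and Decr1. They were chosen by name, with earlier results on these same arrays known, and each was followed at the probe sets annotated to that gene and no other. Of the 9 genes, 8 had such a probe set, 11 probe sets in all, out of 14217 genes so represented. Cyp4a2 was represented only by a probe set annotated to Cyp4a3 as well, so no value is given for it.

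Liver RNA came from 8 male Sprague-Dawley rats aged 7 weeks, 1 rat per Affymetrix 3' expression array. For 2 weeks 4 of them, the L. brevis rats, ate viable Lactobacillus brevis 119-2, a turnip isolate, freeze-dried and mixed in at 10 g per kg. The carrier was CRF-1 chow holding cholesterol (10 g per kg) and cholic acid (5 g per kg). The 4 control rats ate that chow without the bacterium, per the series' design text, although their source label names CRF-1 alone. Both groups therefore carried the same cholesterol and cholic acid load, and no rats on plain diet were compared here. Each diet was fed to 11 rats, of which the 4 per diet described here have arrays. The series asks what the strain does to cholesterol in the liver of cholesterol-fed rats. All signals below are on the deposited log2 scale, and every difference is that of L. brevis minus control livers.

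PPAR-alpha is a receptor for fatty acids that binds DNA together with RXR and, in rodent liver, drives the genes that import, activate and oxidize fatty acids when these arrive from fat tissue in fasting. Its rodent targets include peroxisomal enzymes, the Cyp4a hydroxylases, mitochondrial oxidation enzymes and acyl-CoA thioesterases, and their RNA in liver also follows the time of day and feeding. The label under which the 9 genes were gathered names peroxisomes, but as background only Ehhadh and Pex11a encode proteins known as peroxisomal, while Decr1 and Acot2 encode mitochondrial enzymes, Acot1 a cytosolic one, the Cyp4a enzymes lie in the endoplasmic reticulum and Vnn1 is bound to the cell surface.

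The deposited table limits what can be read. Of 31042 probe sets that are not array controls, 24719 were flat, spanning at most 0.01 log2 over the 8 arrays. The other 6323 (20.4%) are called varying, and all 11 probe sets of the 8 genes were among them. Hepatocyte markers (10 of 10 measured) averaged 12.92 to 13.09 in L. brevis livers and 12.90 to 13.04 in control livers. Kidney markers (6 of 6), from an organ that also expresses Cyp4a2, were all flat and averaged 6.25 in both groups. Skeletal muscle markers (9 of 10) averaged 6.07 to 7.55 in L. brevis livers, with the top value in L. brevis 2, against 6.02 to 6.09 in control livers. Macrophage markers (8 of 10) averaged 9.02 to 9.36 against 8.86 to 9.27, and endothelial markers (8 of 10) averaged 8.34 to 8.47 in L. brevis livers and 8.55 to 9.01 in control livers. Of the small intestine markers (3 of 5 measured) only Apoa4, which liver also makes, varied, from 10.86 to 12.21 in L. brevis livers and from 10.84 to 12.31 in control livers. The list's mean correlated with the mean profile of the 8 genes at r = -0.78 over the 8 livers, and its part in their pattern was not tested. In whole liver, fewer cells of a type and less RNA per cell cannot be told apart.

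What marked most of these genes was the distance between rats on the same diet, not between the diets. Acot1 had the widest range of the 8 genes, down to values that may not be above background, and Acot2, Ehhadh, Cyp4a1, Vnn1 and Pex11a were high and low in nearly the same rats as Acot1. L. brevis 1 and control 1 had high values, and L. brevis 3, L. brevis 4 and control 4 had low ones. Decr1 followed with a small amplitude, and Cyp4a3 followed least. Of the 11 probe sets 0 passed limma's test of diet at an adjusted p under 0.05, where 0.142% of all probe sets did (44 of 31042). Of those 44 only 7 varied, 0.111% of the 6323 varying probe sets, and the rest were flat. When only varying probe sets were tested, 0.0633% passed. The genes were chosen with this contrast known, so their count of 0 and the differences below are a description.

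**Figure D1:**
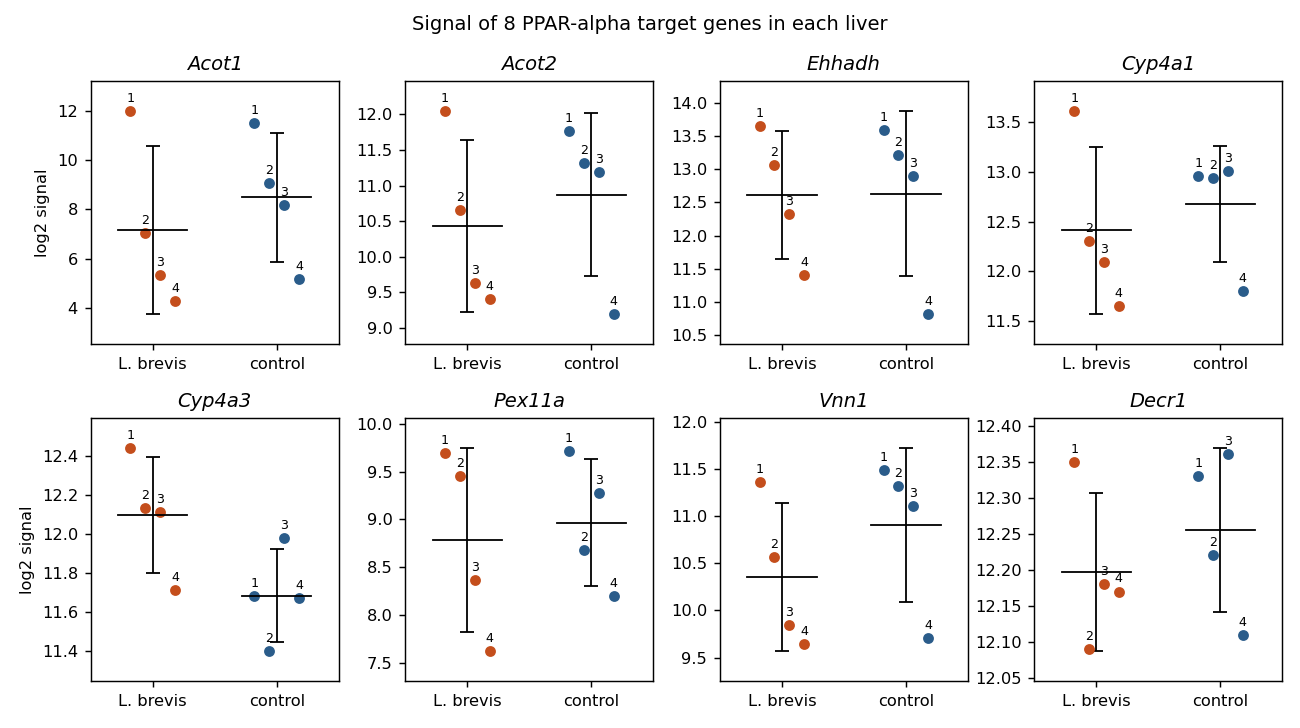
Log2 signal of 8 genes in each liver, with L. brevis rats left and control rats right in each panel. Points carry the replicate number, lines are group means and bars are SDs (n = 4 each), vertical axes differ between panels, and Acot1 runs from 4.27 to 12.00 among the L. brevis rats and from 5.18 to 11.53 among the control rats.

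Acyl-CoA thioesterases cut coenzyme A from activated fatty acids. Acot1, the cytosolic enzyme of liver, had 12.00, 7.05, 5.34 and 4.27 in L. brevis livers 1 to 4, against 11.53, 9.09, 8.18 and 5.18 in control livers 1 to 4. The groups overlapped over most of their range, and each diet held 1 liver far above the rest and 1 or more that were dim. The deposited values spanned 7.73 log2 over all 8 livers. The values of L. brevis 3, L. brevis 4 and control 4 lie below the means of the kidney markers (5.92 to 6.45), and without detection calls they may not be above background, so the size of the span at its low end is uncertain. Group means were 7.16 ± 3.42 for L. brevis and 8.49 ± 2.63 for control (SD, n = 4 each), so the difference of -1.33 (SE 2.13) had a 95% interval from -6.51 to 3.84.

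Acot2, the mitochondrial thioesterase, was read by 3 probe sets of its own. At the brightest it had 12.04, 10.65, 9.63 and 9.41 in L. brevis livers, against 11.77, 11.32, 11.19 and 9.20 in control livers. Here 1 L. brevis rat and 3 control rats stood high, and the groups overlapped. Its means were 10.43 ± 1.20 in L. brevis livers and 10.87 ± 1.14 in control livers (SD, n = 4 each), a difference of -0.44 (SE 0.82, interval -2.43 to 1.56). A second probe set had 9.55, 8.84, 7.64 and 7.76 in L. brevis livers, against 9.35, 8.90, 8.52 and 7.57 in control livers, a difference of -0.14 (SE 0.58). The third had 8.72, 8.18, 7.41 and 7.32 in L. brevis livers, against 7.86, 7.95, 7.65 and 6.95 in control livers, a difference of 0.30 (SE 0.40). The third probe set thus had the opposite sign to the others, and each of the 3 intervals included 0. Over the 8 livers the 3 probe sets moved alike (Pearson's r from 0.84 to 0.96).

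Acot1 and Acot2 are neighbours on rat chromosome 6 (assembly GRCr8) and paralogs. A probe set annotated to both was left out, but part of each gene's signal may still come from the other. Their start regions are shown because the 2 genes had nearly 1 pattern over the rats. Each window runs from 250 bases before to 50 bases after the RefSeq gene start, on the + strand of GRCr8, at chr6:109367024-109367323 for Acot1 and chr6:109342590-109342889 for Acot2. Capitals would mark the 6-base nuclear receptor element AGGTCA on either strand, and neither window holds it.
Acot1: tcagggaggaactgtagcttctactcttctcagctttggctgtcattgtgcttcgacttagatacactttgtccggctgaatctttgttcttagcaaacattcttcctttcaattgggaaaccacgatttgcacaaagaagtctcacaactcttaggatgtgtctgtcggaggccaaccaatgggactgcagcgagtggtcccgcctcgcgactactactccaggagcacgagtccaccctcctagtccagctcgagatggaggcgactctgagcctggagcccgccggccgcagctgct
Acot2: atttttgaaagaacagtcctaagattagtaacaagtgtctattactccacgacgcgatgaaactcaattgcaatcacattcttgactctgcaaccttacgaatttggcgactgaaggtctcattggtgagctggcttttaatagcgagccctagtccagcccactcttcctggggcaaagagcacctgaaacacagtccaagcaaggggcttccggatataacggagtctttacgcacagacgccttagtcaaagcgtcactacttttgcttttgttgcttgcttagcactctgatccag
Aligned end to end, the 2 windows shared 176 bases in 368 columns (47.8%), so the genes' start regions are not near copies although their signals moved together (r = 0.96, n = 8).

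Ehhadh, the bifunctional enzyme of the peroxisomal beta-oxidation cycle, was among the brightest of the 8 genes. It had 13.65, 13.07, 12.33 and 11.40 in L. brevis livers and 13.59, 13.22, 12.90 and 10.82 in control livers. The highest rats of the diets were nearly level, and control 4 was the lowest of all. Means were 12.61 ± 0.97 and 12.63 ± 1.24 (L. brevis and control, SD, n = 4 each), a difference of -0.02 (SE 0.78, interval -1.91 to 1.87).

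Decr1, the mitochondrial 2,4-dienoyl-CoA reductase needed for unsaturated fatty acids, had 12.35, 12.09, 12.18 and 12.17 in L. brevis livers, against 12.33, 12.22, 12.36 and 12.11 in control livers. All 8 livers fell within 0.27 log2, and the groups overlapped. Its difference was -0.06 (SE 0.08), with an interval from -0.25 to 0.13 that makes it the most tightly bounded of the 8 genes.

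The Cyp4a enzymes hydroxylate fatty acids at the end of the chain. Cyp4a1 had 13.61, 12.30, 12.09 and 11.65 in L. brevis livers, against 12.96, 12.94, 13.01 and 11.80 in control livers. Among controls 3 rats were alike and control 4 was lower by more than 1 log2 unit, and among L. brevis rats L. brevis 1 stood well above the other 3. Means were 12.41 ± 0.84 in L. brevis livers and 12.68 ± 0.59 in control livers (SD, n = 4 each), a difference of -0.27 (SE 0.51, interval -1.50 to 0.96). The annotation of this probe set is not settled. Its gene identifier is that of Cyp4a1, but the transcript accession beside it belongs to Cyp4b1 in the RefSeq gene table of GRCr8. Of the 11 probe sets, 5 had a transcript accession in that table, and the other 4 of these pointed to the same gene as the identifier. Over the 8 livers the probe set correlated with the mean profile of the other members at r = 0.96 (Spearman's rho 0.95), and with the probe set of Cyp4b1 at r = 0.77 (rho 0.69).

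Cyp4a3 had 12.44, 12.13, 12.11 and 11.71 in L. brevis livers, against 11.68, 11.40, 11.98 and 11.67 in control livers. The highest 3 values were all L. brevis, L. brevis 4 lay inside the control range, and control 2 was the lowest. Means were 12.10 ± 0.30 and 11.68 ± 0.24 (L. brevis and control, SD, n = 4 each), a difference of 0.42 (SE 0.19, interval -0.04 to 0.88), 1.34-fold higher. It was the only 1 of the 8 genes with a higher mean in L. brevis livers at its brightest probe set.

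Cyp4a3 and Cyp4a1 are direct neighbours on rat chromosome 5. Cyp4a2 lies nearby, and its start region is shown beside that of Cyp4a3 because the only probe set annotated to Cyp4a2 is shared with Cyp4a3, which also has a probe set of its own. Both windows are from RefSeq, GRCr8, - strand, at chr5:134170859-134171158 for Cyp4a2 and chr5:134352187-134352486 for Cyp4a3, with AGGTCA in capitals.
Cyp4a2: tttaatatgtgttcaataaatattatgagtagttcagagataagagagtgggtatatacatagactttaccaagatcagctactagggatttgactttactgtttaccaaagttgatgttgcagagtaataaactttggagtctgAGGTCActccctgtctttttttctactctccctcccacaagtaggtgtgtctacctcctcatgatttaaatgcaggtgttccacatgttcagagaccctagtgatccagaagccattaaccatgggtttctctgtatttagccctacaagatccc
Cyp4a3: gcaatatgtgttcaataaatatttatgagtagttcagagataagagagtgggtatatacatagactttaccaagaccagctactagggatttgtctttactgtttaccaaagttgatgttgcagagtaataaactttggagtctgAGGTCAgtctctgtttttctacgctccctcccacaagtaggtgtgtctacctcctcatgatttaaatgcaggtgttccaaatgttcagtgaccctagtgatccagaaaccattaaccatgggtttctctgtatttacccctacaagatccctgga
The 2 windows shared 284 bases in 305 aligned columns (93.1%). Each holds AGGTCA once, 105 bases before the gene start. That element is in 15.7% of all 27457 RefSeq windows of this length on either strand, and in 2 of the 6 members with a window. The paired form AGGTCANAGGTCA, the consensus that PPAR-alpha and RXR bind together, was in 0 of those 6 and in 0.0583% of all windows. Those matches describe letters in a 300-base window, not binding.

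Pex11a, which helps peroxisomes divide, was read by a brighter and a dimmer probe set that disagreed. At the brighter, L. brevis livers had 9.69, 9.45, 8.37 and 7.63, against 9.71, 8.68, 9.28 and 8.20 in control livers. These groups overlapped fully, with a difference of -0.18 (SE 0.57, interval -1.58 to 1.22). At the dimmer, L. brevis livers had 6.95, 7.00, 6.89 and 6.65, against 6.61, 6.38, 6.38 and 6.36 in control livers. Here every L. brevis value lay above every control value, by 0.44 on average (SE 0.09, interval 0.21 to 0.67, adjusted p = 0.267, limma). Diet groups failed to overlap in 11.3% of all varying probe sets, with L. brevis higher in 4.21%. The control values lay within or near the range of the kidney marker means (5.92 to 6.45), so they may not be above background. The transcript listed for the dimmer one is Pex11a's in the RefSeq gene table of GRCr8, and the one listed for the brighter is not in that table. Over the 8 livers the 2 probe sets correlated at r = 0.30 (rho 0.36), and which of them follows the transcript was not tested.

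Vnn1, a pantetheinase that splits pantetheine into cysteamine and vitamin B5, had 11.36, 10.57, 9.85 and 9.64 in L. brevis livers, against 11.49, 11.32, 11.11 and 9.71 in control livers. As for Acot2, 3 control rats stood high and control 4 stood with L. brevis 3 and 4. Its means were 10.35 ± 0.78 in L. brevis livers and 10.91 ± 0.82 in control livers (SD, n = 4 each), a difference of -0.56 (SE 0.56, interval -1.91 to 0.80).

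**Figure D2:**
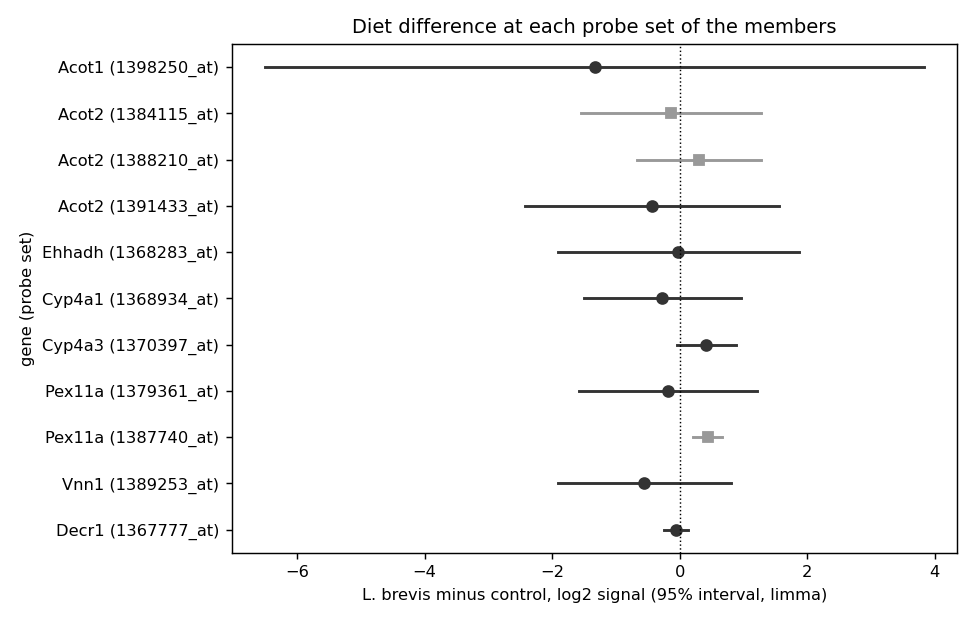
Difference in log2 signal, L. brevis minus control, at each of the 11 probe sets of the 8 genes, with limma's 95% interval (4 rats per group). Round markers are the brightest probe set of a gene and square grey markers the others; all intervals except that of the dimmer Pex11a probe set include 0.

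Over the 8 genes 1 mean was higher and 7 were lower in L. brevis livers, with a median difference of -0.22, beside a median of -0.04 over all 3806 varying genes, of which 1599 were higher and 2207 lower. At their brightest probe sets 0 of the 8 had an unadjusted p under 0.05, against 20.6% of varying genes, and 0 had diet groups that did not overlap, against 10.4%. Over all 11 probe sets the dimmer one of Pex11a was the only 1 under that p, against 22.9% of varying probe sets. This median turned to 0.97 when the GAPDH 5' minus 3' signal, a sign of RNA quality described below, entered the fit. It was 0.54 without L. brevis 3 and 4 (an alternative chosen after seeing the data), and single-rat omissions gave -0.59 to -0.03.

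Most of these genes had a larger spread between rats of 1 diet than the median varying gene. The SD within diets was 3.05 for Acot1, ranked 4 of 3806 varying genes from the largest, with the dim values of 3 livers included as deposited. It was 1.17 for Acot2 (rank 76) and 1.11 for Ehhadh (rank 82). Pex11a (0.82, rank 169), Vnn1 (0.80, rank 187) and Cyp4a1 (0.73, rank 223) followed. The median SD was 0.81 over the 8 genes and 0.21 over all varying genes. It was 0.83 over 12 clock genes and 0.58 over 15 fasting and lipid droplet genes, among them Angptl4 at 1.66, so a wide spread was not particular to the 8. Cyp4a3, at 0.27 (rank 1354), lay just above that median and Decr1, at 0.11 (rank 2986), below it. The genes were gathered with these values known, so the ranks describe them and test nothing.

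**Figure D3:**
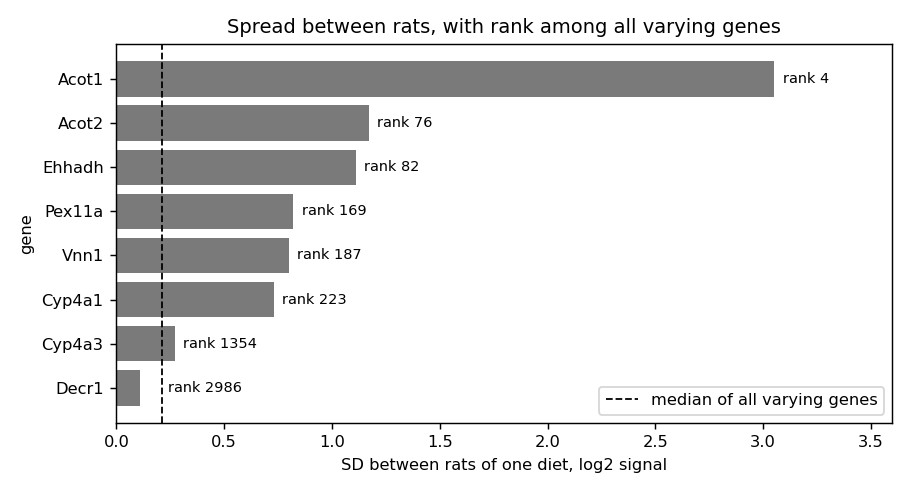
SD of log2 signal between rats of the same diet, pooled over both diets, for 8 genes, as bars from 0. The dashed line is the median of all 3806 varying genes (0.21), and the printed rank counts from the largest SD; 6 of the 8 genes lie far to the right of that line.

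The order of the rats was shared, and for part of the genes it was the order of the replicate numbers. At their brightest probe sets Acot1, Acot2, Ehhadh and Vnn1 fell from replicate 1 to replicate 4 in both diets. With replicate number as a block in the fit, the SE of Acot1's difference went from 2.13 to 0.70 and Ehhadh's from 0.78 to 0.23. That of Cyp4a3 stayed at 0.19. Acot1 and Ehhadh are among the genes that fell in that order. With the mean signal of Dbp, Per3, Nr1d1, Nr1d2 and Tef, all clock genes, as covariate instead, these SEs were 1.37, 0.39 and 0.19. Vnn1's went from 0.56 to 0.28 in either fit, and Pex11a's from 0.57 to 0.36 with the block and 0.31 with the clock covariate. The cause was not tested. L. brevis 1 was the highest or second of 8 livers for 8 of the 8 genes. Control 4 was among the lowest 3 livers for all 8 genes, L. brevis 4 for 7 and L. brevis 3 for 6. Acot1, Acot2, Ehhadh, Cyp4a1, Vnn1 and Pex11a gave 15 pairs, with Pearson's r over the 8 livers from 0.82 to 0.98 and Spearman's rho from 0.83 to 0.98. Leaving out for each pair the 2 livers farthest from the median left r at 0.64 to 0.99. After each diet's mean was removed r was 0.82 to 1.00, so the pattern was present within the diets. Decr1 paired with these 6 at 0.58 to 0.82. Over all pairs of varying genes the median r was 0.02, and 4.90% of pairs reached 0.8. The points share their RNA samples and arrays, and the genes were gathered with the pattern known.

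Cyp4a3 stood apart in this respect. Its 7 pairs with the other genes had r from 0.06 to 0.44, and -0.33 to 0.28 without the 2 farthest livers. With diet means removed they were 0.42 to 0.71. Those values pool both diets, and the order was shared in only 1 of them. Among L. brevis livers Cyp4a3 fell from L. brevis 1 to L. brevis 4, as Acot1 did. Among control livers Cyp4a3 was highest in control 3 (11.98) and lowest in control 2 (11.40), where Acot1 was highest in control 1 and lowest in control 4. Its direct neighbour Cyp4a1 paired with it at r = 0.31 over the livers and at 0.62 with diet means removed.

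**Figure D4:**
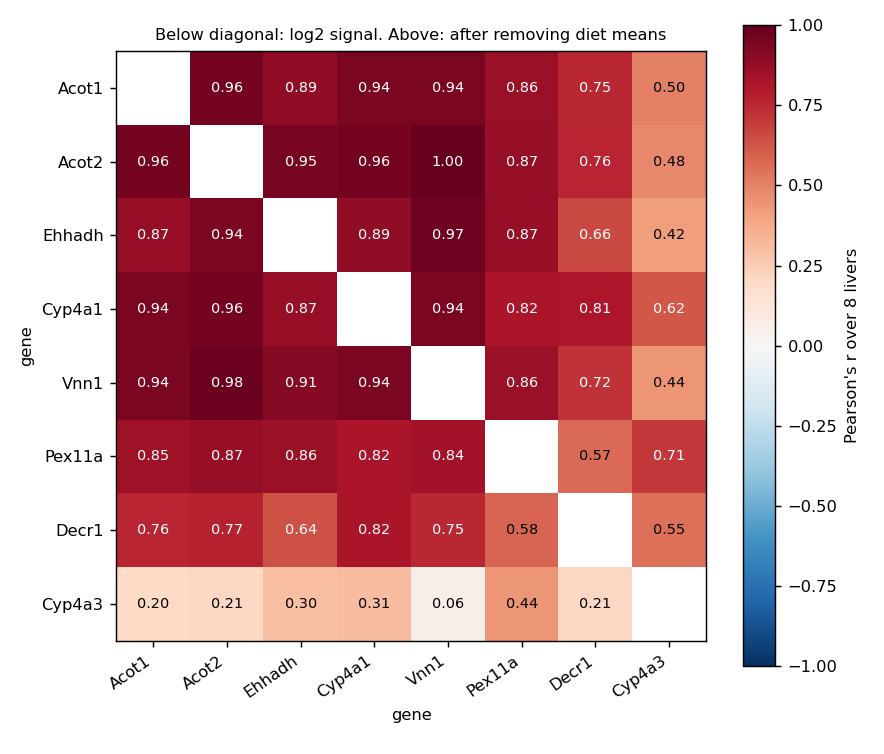
Pearson's r over 8 livers for each pair of the 8 genes, on log2 signal below the diagonal and after removal of each diet's mean above it. The 6 genes at the upper left pair at 0.82 or more on both sides, and the bottom row of Cyp4a3 runs from 0.06 to 0.44.

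Other measurements moved with the same order of rats. Dbp, a clock output factor whose RNA swings with the time of day, had 6.37, 6.08, 8.56 and 9.87 in L. brevis livers, against 6.18, 5.77, 6.08 and 8.19 in control livers. The 3 livers with the high values, L. brevis 3 and 4 and control 4, were those with the lowest Acot1. Nr1d1, the clock repressor REV-ERB alpha, had 5.87, 5.66, 8.74 and 8.34 in L. brevis livers, against 5.89, 6.12, 7.86 and 8.63 in control livers, so control 3 was high here too. Per3, a clock gene of the period family, had 6.15, 5.84, 8.0 and 8.34, against 6.04, 6.19, 6.87 and 8.24. For these 3 clock genes most livers fell into a low and a high set, so no correlation is given for them. Control 3 was low for Dbp, high for Nr1d1 and in between for Per3. Other clock genes ran with the mean profile of the 8 genes, Npas2 at r = 0.83, Bmal1 at 0.77 and Cry1 at 0.74. Over all 12 varying clock genes the median r was -0.55. The part of clock genes in the pattern of the PPAR-alpha targets was not tested, and no time of sampling is given in the sources used here.

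RNA quality moved with the pattern as well. The GAPDH 5' minus 3' signal, which is less negative where long RNA copies were labelled, was -2.20, -1.30, -0.94 and -0.68 in L. brevis livers, against -2.89, -1.83, -2.93 and -1.98 in control livers, with means of -1.28 in L. brevis livers and -2.41 in control livers. The same measure for beta-actin was -3.50, -2.48, -2.59 and -1.86, against -3.89, -3.00, -3.69 and -3.31. Over the 8 livers the GAPDH measure correlated with the members' mean profile at r = -0.68 (rho -0.67), at -0.54 without the 2 livers farthest from its median, and at -0.87 with diet means removed. Control 4 (-1.98), low for the members, and L. brevis 1 (-2.20), high for them, had close GAPDH measures. Against its own diet's mean, control 4 was less negative and L. brevis 1 more negative. The part of RNA quality in the result was not tested.

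**Figure D5:**
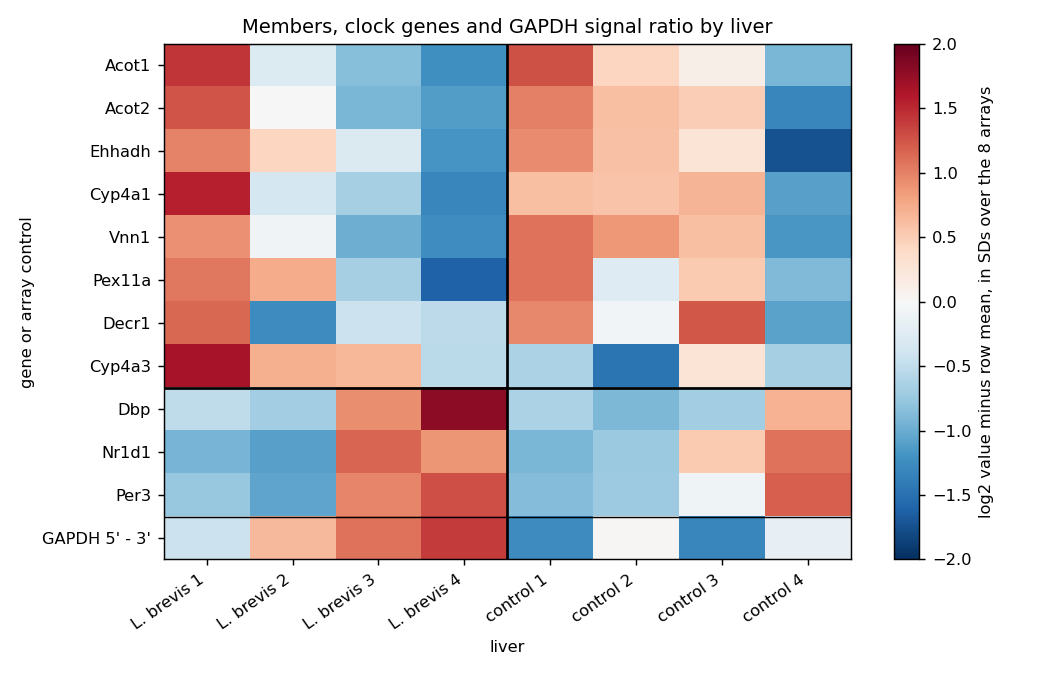
Each row shows 1 gene, or the GAPDH 5' minus 3' signal, in each liver as its distance from the row mean in SDs over the 8 arrays, with L. brevis livers left of the line and control livers right. Red in L. brevis 1 and control 1 and blue in L. brevis 3, L. brevis 4 and control 4 recur in the upper rows, and Dbp, Nr1d1 and Per3 show the reverse in the last 3 of these livers.

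The other genes of the pathway were taken as a list of 110, of which 96 had a probe set of their own and 66 varied. At an adjusted p under 0.05 none passed in limma's fit, and 9 higher and 1 lower had an unadjusted p under 0.05, where 6.91% of all varying genes were so on the higher side and 13.7% on the lower. The list had 33 higher and 33 lower members and a median difference of 0.00. Its peroxisomal enzymes (20 varying) had 12 higher and 8 lower, with a median of 0.18. Its mitochondrial enzymes (15) had 8 higher and 7 lower with a median of 0.01, and fasting and lipid droplet genes (15) had 5 higher and 10 lower with a median of -0.21. Peroxins, the proteins that build peroxisomes, had 4 higher and 2 lower (median 0.13).

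The 4 genes with the smallest unadjusted p on the higher side were Hadhb, Etfdh, Acox3 and Nudt7. Hadhb, the beta subunit of the mitochondrial trifunctional protein, differed by 0.72 (SE 0.19, adjusted p = 0.347, limma), with no overlap between diets. Etfdh, which passes electrons from fatty acid oxidation to the respiratory chain, had 10.78, 10.85, 11.06 and 10.90 in L. brevis livers, against 9.70, 10.62, 10.26 and 10.23 in control livers. Its difference was 0.70 (SE 0.20, adjusted p = 0.347, limma), again with no overlap. Acox3, a peroxisomal oxidase of branched fatty acids, differed by 0.34 (SE 0.10) and Nudt7, a peroxisomal coenzyme A hydrolase, by 0.33 (SE 0.10), both with the same adjusted p by limma. Hadhb, Etfdh and Acox3 were the only 3 of the list's 66 varying genes without overlap between diets, where 10.4% of all varying genes had none. Against the 8 genes above, none of these 4 genes shared the order of rats: their r with the members' profile was -0.48 for Hadhb, -0.30 for Etfdh, -0.49 for Acox3 and 0.33 for Nudt7 (n = 8).

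On the lower side stood Rxrb, a partner receptor of PPAR-alpha, at -0.44 (SE 0.14, adjusted p = 0.347, limma). The phosphatidate phosphatase gene Lpin1 differed by -0.73 (SE 0.37), and by -0.35 (SE 0.23) at its other probe set. Cyp4b1, next to Cyp4a1 on chromosome 5, differed by -0.45 (SE 0.23) and the peroxisomal hydrolase gene Nudt19 by -0.24 (SE 0.13). None of these 4 passed the adjusted threshold. Ppara itself was flat at 6.56, which leaves its response unmeasured. Rxra, the main liver RXR, had 6.97, 7.42, 7.46 and 7.72 in L. brevis livers, against 6.71, 6.88, 6.90 and 7.15 in control livers. Its difference of 0.48 (SE 0.18, unadjusted p = 0.0341, adjusted p = 0.379, limma) did not pass the adjusted threshold either.

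Several genes outside the list of 9 followed the same rats. The 5 with the highest correlation to the members' mean profile, among 3798 other varying genes, were Eci1, Ppp2r2d, Cyp2j4, Impa2 and Acot4. Eci1, a mitochondrial enoyl-CoA isomerase, had 13.68, 12.73, 12.44 and 11.89 in L. brevis livers, against 13.35, 13.00, 12.93 and 12.03 in control livers (r = 0.99, rho 0.95). Its other probe set held 6.39 throughout. Cyp2j4, a fatty acid epoxygenase, had 12.38, 10.90, 10.41 and 10.04, against 12.08, 11.32, 11.58 and 10.35 (r = 0.98). Ppp2r2d, a regulatory subunit of protein phosphatase 2A, and Impa2, an inositol monophosphatase, reached 0.98 each, and Acot4, a peroxisomal thioesterase, 0.97. Of all 3798 genes, 240 (6.32%) had r of at least 0.8 and 200 (5.27%) had r of -0.8 or lower.

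Among the other pathway genes, 5 of 20 peroxisomal, 3 of 15 mitochondrial and 6 of 15 fasting and lipid droplet genes had r of at least 0.8 with the members' profile. So did 1 of 6 peroxins, 0 of 4 regulators and 0 of 6 genes of the members' own families. In the peroxins and in these families 1 gene each had r of -0.8 or lower. Crat, which moves acyl groups onto carnitine, reached 0.96, and so did Plin2, the coat protein of lipid droplets. Plin2 had 12.27, 11.72, 10.92 and 10.05 in L. brevis livers, against 12.13, 11.43, 12.12 and 10.56 in control livers. Angptl4, a secreted inhibitor of lipoprotein lipase, had 11.46, 10.97, 8.50 and 7.14, against 10.65, 9.49, 11.48 and 8.94 (r = 0.86). In contrast Cpt2 (0.29), Hsd17b4 (-0.23), Acox2 (-0.68) and Cyp4a8 (-0.66) did not follow it. These genes were picked for mention after their values were seen.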

How the data were processed

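Total RNA was labelled from 100 ng with a 3' in vitro transcription kit and hybridised to 8 arrays, per the labels' protocols. The authors deposited 1 log2 signal per probe set and array, already normalized. Summarisation, normalization, batches and array dates are not given in the sources used here. Array medians were 6.61 to 6.63. The table's 57 control probe sets were left out of the tests. Of the others, 20826 had 1 gene symbol in the platform annotation, updated through gene identifiers, 436 had several and 9780 none. Each gene was represented by its brightest such probe set.

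The diets were compared in limma 3.58.1 (R 4.3.3; lmFit and eBayes with an intensity trend, two-sided) over all 31042 probe sets, adjusted by Benjamini-Hochberg and read at 0.05. The fit was tested on simulated data. Intervals and SEs are limma's. The number of arrays limits precision. Replicates are biological per the labels. The members' profile is the mean over 8 genes of each gene's distance from its mean in SDs. Promoter windows are RefSeq's (GRCr8), and 6 of the 9 genes had one. They were aligned with Biopython 1.88.

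All 9 members are named. From the wider list the 4 varying genes with the smallest unadjusted p in each direction were named, with Ppara and Rxra, and the 5 genes most like the members' profile. Members, lists, contrasts and the r limit of 0.8 were chosen with earlier results of these data known. Alternatives were quantile normalization, median centring, other probe set filters, no trend, a replicate block, a GAPDH or clock covariate, other probe sets of a gene, and leaving out rats.

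Same-numbered rats of the diets had correlated deviations for replicates 1, 2 and 4 (r = 0.36, 0.20 and 0.38) and not for replicate 3 (0.08). The main fit left the rats unpaired, so its SEs include any difference that goes with replicate number. What the replicate numbers stand for was not tested.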

Additional observations from a re-analysis of the deposited data

Results flagged for a closer look

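Outlying rats were sought in each diet group at each of the 11 probe sets, 22 groups in all, and chance alone would pick out about 1 in 20 such groups. At Cyp4a1, control 4 had 11.80, while the other control livers had 12.94 to 13.01. At the dimmer Pex11a probe set, control 1 had 6.61, while the other control livers had 6.36 to 6.38.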

How the results depend on the processing

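No probe set of the 8 genes was called in any of the 17 alternatives, all of them limma fits. The number of called probe sets, 44 as reported, was 0 under quantile normalization (3374 at an unadjusted p under 0.05), 0 with a robust prior and no trend (3437 unadjusted), 4 with median centring, 4 over varying probe sets, 3 over varying ones above the median signal, 180 without L. brevis 3 and 4, and 67 to 180 with single rats left out, each over 1.5 times the reported count (180 without L. brevis 1, 107 without control 4). Of the 44 calls as reported 7 varied, and over the alternatives between 0 and 49 of the calls did. A replicate block gave 128 calls and left every difference as it was, with smaller SEs for most members (0.70 for Acot1, 0.23 for Ehhadh, 0.28 for Vnn1). Each L. brevis rat's closest control by deviations bore its own number for replicates 1, 2 and 4 only. From the control side this held for replicates 1 and 2 only, as control 4 was closest to L. brevis 3 and control 3 to L. brevis 1. With the GAPDH covariate the members' median was 0.97 and the wider list's 0.12, and the wider list's was 0.14 without L. brevis 3 and 4. The cause was not tested. Single omissions gave -0.59 to -0.03 for the members' median and -0.06 to 0.08 for the wider list's. The members' median was -0.07 with the clock covariate and -0.07 with each gene's probe sets averaged. Among differences of single members, 128 of 136 moved by less than 1 SD between rats. The 8 that moved further were those under the GAPDH covariate, where 7 turned from negative to positive and Cyp4a3 became 0.83. In all 24 changed sign, 9 of them Ehhadh's and 6 Pex11a's, and Cyp4a3 kept its sign throughout (0.30 to 0.83). Without Cyp4a1, whose annotation is unsettled, the members' median was -0.18.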
